A study of Mus musculus with 24 samples.

Results

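The livers of PXR-deficient mice were set against those of wild type mice for their response to PCN (pregnenolone 16α-carbonitrile), a steroid nitrile that switches on the rodent pregnane X receptor, PXR. The quantity compared was the log2 ratio of PCN-treated liver RNA over a vehicle pool of the same genotype, taken for each mouse probe on 6 wild type and 6 PXR-deficient arrays, 12 of the 24 arrays in the series. Of 284 mouse probes on the array, 147 are paired with 1 gene by the platform annotation and 137 are not. Brightness allowed a test of 236 probes, of which 128 carry a gene name and stand for 125 genes, and 48 probes were too dim.

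All groups were male C57BL/6J mice aged 9 to 12 weeks on standard chow. The Cy5 channel of every array held liver RNA of mice injected into the peritoneum with PCN at 40 mg/kg in 5% DMSO and corn oil, taken after 12 h. The Cy3 channel held a pool of livers that the labels call untreated in 1 field and vehicle-injected (5% DMSO in corn oil) in another, with 1 pool per genotype. The groups used were wild type, PXR-deficient and, for context, CAR-deficient and CAR/PXR-deficient mice (CAR is the constitutive androstane receptor), with 6 arrays each. The labels name no allele or exon for either deficiency. They also state that RNA of 6 replicates was pooled without naming the channel, and the p-values therefore reflect only how far these arrays vary, which may be technical variation. Because each genotype has a single vehicle pool, genotype and pool cannot be told apart where the Cy3 channel carries a difference.

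PXR (gene Nr1i2) is a nuclear receptor of the liver and gut that binds foreign compounds and bile acids, pairs with the retinoid X receptor and activates genes for oxidation, conjugation and transport. Genes of the Cyp3a family are its classic targets in mouse liver. CAR (Nr1i3) is a related receptor with partly shared target genes. The array was designed around drug metabolism, cholesterol and bile acid metabolism and the circadian clock, so its probes are not a sample of the genome.

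Median foreground intensity ran from 71 to 544 in Cy5 and from 156 to 480 in Cy3 over the 12 arrays, and an array had 201 to 243 mouse probes above background. PXR-deficient replicate 2 stood apart: its median absolute log2 ratio was 0.329 against 0.103 to 0.161 on the other 5 arrays of its group, 48 of its probes lay at 1.5-fold or more, and 32 of its Cy3 spots were saturated. Results that rest on it are given with and without it. Wild type replicate 2 deviated less, at 0.241 against 0.128 to 0.219 on the other wild type arrays. It had 30 probes at 1.5-fold or more and 18 saturated Cy3 spots. Deviations of the replicate 2 arrays of both genotypes from their group means were correlated at -0.52. The hepatocyte markers with a tested probe, Apoa1 and Cyp2e1, were bright in both genotypes (mean channel levels of 12.2 to 13.2 on the log2 scale), and the annotation paired no probe with the listed markers of other liver cells. In bulk liver RNA, fewer cells of a type and less RNA per cell cannot be told apart.

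The targeted gene did not check the labels. The Nr1i2 probe was dim, with mean Cy5 levels of 7.71 in wild type and 7.93 in PXR-deficient livers and mean Cy3 levels of 7.49 and 7.85. It was therefore not lower in the livers labelled PXR-deficient, and where the probe lies relative to the deleted part is not given in the sources used here. Its PCN log2 ratio differed by 0.14 ± 0.11 (SE, limma adjusted p = 0.274).

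The largest differences belonged to 3 probes annotated to genes of the Cyp3a family, the cytochrome P450 enzymes that oxidise many drugs and steroids. PCN raised each of them in wild type livers, and none of the 3 passed the test in PXR-deficient livers. Cyp3a11, the main drug-oxidising Cyp3a enzyme of mouse liver, had log2 ratios from 2.61 to 3.35 on the wild type arrays (median 2.90) and from -0.14 to 0.62 on the PXR-deficient arrays (median 0.34). All 6 wild type arrays lay far above all 6 PXR-deficient arrays, and the lowest value was that of PXR-deficient replicate 2. The mean rise was 7.68-fold in wild type (limma adjusted p = 4.53e-15) against 1.23-fold without PXR (adjusted p = 0.0964). The genotypes thus differed by 2.64 ± 0.20 (SE, limma adjusted p = 1.98e-10).

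The Cyp3a41a probe behaved likewise, with log2 ratios of 2.58 to 2.99 (median 2.88) in wild type and -0.37 to 0.47 (median 0.22) in PXR-deficient livers. The groups were separated by a gap of more than the range within either of them. The difference was 2.69 ± 0.17 (SE, limma adjusted p = 2.55e-12). Cyp3a genes of the mouse are close in sequence and the probe sequences were not used here, so the reading of this probe may include related transcripts. Whether it measures a transcript other than Cyp3a11 was not tested. Cyp3a13 had log2 ratios of 1.06 to 1.42 (median 1.21) in wild type and -0.14 to 0.08 (median 0.01) without PXR, again with no overlap. PCN raised it 2.35-fold in wild type, and the difference was 1.24 ± 0.11 (SE, limma adjusted p = 1.19e-09).

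The promoters of the 3 genes annotated to these probes are shown because the probes rose together in wild type livers and PXR acts through paired hexamer sites. Each window is from RefSeq on build GRCm38.p6, 250 bases before to 50 after the gene start, 5′ to 3′ on the minus strand, with matches to the half-sites AGGTCA and AGTTCA on either strand in capitals. The windows are chr5:145879805-145880104 for Cyp3a11, chr5:145720087-145720386 for Cyp3a41a and chr5:137921570-137921869 for Cyp3a13.
Cyp3a11: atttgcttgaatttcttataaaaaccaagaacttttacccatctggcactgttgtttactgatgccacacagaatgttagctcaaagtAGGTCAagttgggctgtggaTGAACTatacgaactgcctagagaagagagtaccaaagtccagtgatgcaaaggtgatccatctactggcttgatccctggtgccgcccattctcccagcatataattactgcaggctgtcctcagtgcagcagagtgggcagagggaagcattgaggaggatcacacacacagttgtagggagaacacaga
Cyp3a41a: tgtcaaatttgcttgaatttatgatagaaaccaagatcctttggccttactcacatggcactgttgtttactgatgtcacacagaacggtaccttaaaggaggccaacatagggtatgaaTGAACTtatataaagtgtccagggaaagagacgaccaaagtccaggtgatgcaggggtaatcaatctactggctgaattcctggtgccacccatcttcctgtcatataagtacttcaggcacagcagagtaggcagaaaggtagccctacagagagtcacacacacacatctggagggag
Cyp3a13: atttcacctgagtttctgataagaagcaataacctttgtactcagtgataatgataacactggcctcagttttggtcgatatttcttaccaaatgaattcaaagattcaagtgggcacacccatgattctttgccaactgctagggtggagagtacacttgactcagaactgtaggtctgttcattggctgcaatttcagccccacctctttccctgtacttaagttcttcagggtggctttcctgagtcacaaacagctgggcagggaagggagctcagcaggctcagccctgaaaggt
Cyp3a11 held AGGTCA from -162 to -157 and TGAACT from -142 to -137, Cyp3a41a held TGAACT from -130 to -125, and Cyp3a13 held neither. A half-site of these letters occurs in 27.7% of 32851 promoters of the same length. None of the 3 windows held a pair of half-sites as a direct repeat spaced by 3 or 4 bases, or as an everted repeat spaced by 6. Both strands were searched for exact letters, with no mismatch allowed. Those exact pairs occur in 0.0122%, 0.0274% and 0.00913% of the promoters, so their absence here says little, and imperfect pairs were not searched. Of 9 promoters searched in this way, those of Slco1b2, G6pc, Insig1 and Abca1, which PCN did not raise in wild type livers, also held half-sites, while those of Mbtps1 and Slco1a4 did not, and no pair was found in any of the 9. These matches describe letters in a short window, and regulatory sequence farther upstream was not searched.

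**Figure D1:**
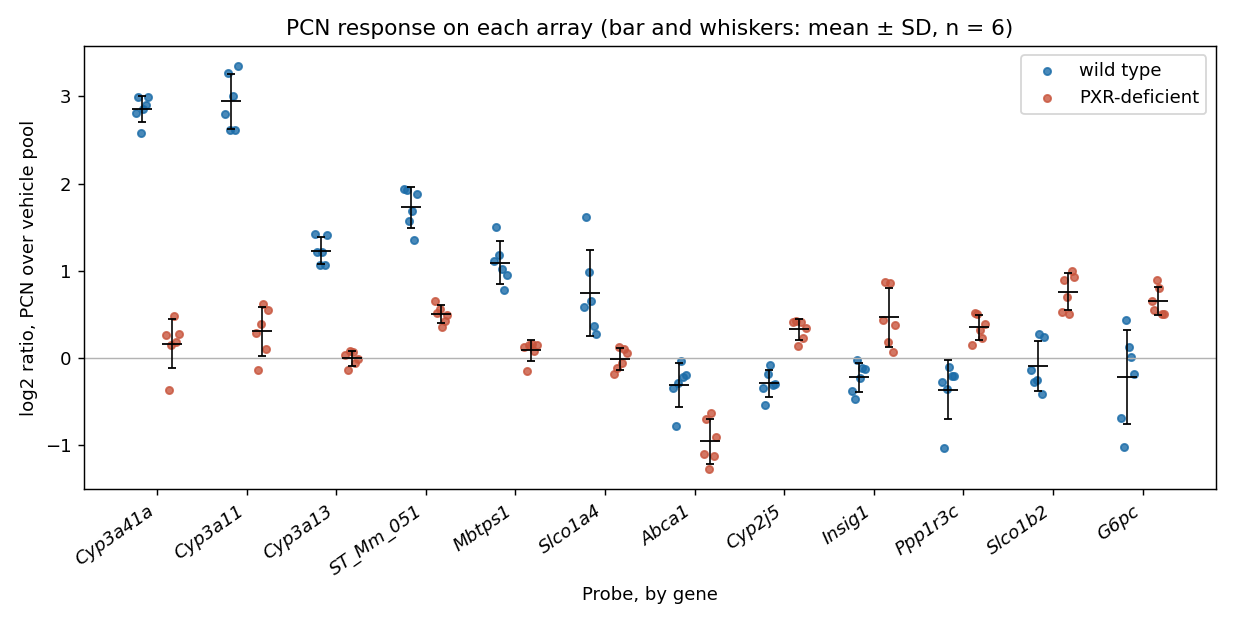
Log2 ratio of PCN over vehicle pool (vertical axis) on each of 6 wild type (blue) and 6 PXR-deficient (red) arrays for 12 probes, with mean ± SD. The Cyp3a probes, ST_Mm_051, Mbtps1 and Slco1a4 are high on the wild type arrays and near 0 or slightly above it without PXR, while Cyp2j5, Insig1, Ppp1r3c, Slco1b2 and G6pc lie above 0 on all PXR-deficient arrays.

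Mbtps1, Slco1a4 and the unnamed probe ST_Mm_051 were among the other probes that rose in wild type livers and whose arrays did not overlap between genotypes. Mbtps1, the site-1 protease that cleaves sterol-regulatory proteins, had log2 ratios of 0.78 to 1.5 (median 1.07) in wild type and -0.15 to 0.16 (median 0.14) without PXR, 1.01 ± 0.11 apart (SE, limma adjusted p = 2.09e-07). The Mbtps1 probe was dim in the wild type pool, where Cy3 was above background on 3 of 6 arrays. Slco1a4, an uptake transporter for bile acids and organic anions, ranged from 0.27 to 1.61 (median 0.62) in wild type and from -0.18 to 0.13 without PXR. Wild type replicate 2 held the highest Slco1a4 value, and every wild type array lay above every PXR-deficient one.

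The Slco1a4 difference was 0.76 ± 0.22 (SE, limma adjusted p = 0.00601). Its Cy3 signal was above background on 4 wild type and 3 PXR-deficient arrays, and the call was lost with arrays centred on the control probes (0.47, adjusted p = 0.242), also with PXR-deficient replicate 2 left out (0.68, adjusted p = 0.084). The unnamed probe ST_Mm_051 rose 3.31-fold in wild type and, unlike the named ones, also 1.41-fold in PXR-deficient livers (limma adjusted p = 1.71e-05). Its difference was 1.23 ± 0.11 (SE, limma adjusted p = 1.19e-09).

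Across the array, the genotypes differed in their PCN log2 ratio at 124 of 236 probes (52.5%) by limma at an adjusted p of 0.05. It was higher in wild type at 69 probes (29.2%) and lower at 55 (23.3%). Most of these differences were small: the median was 0.34 among the higher and -0.40 among the lower probes, against -0.01 over all probes tested. Only 5 probes differed by 2-fold or more, all higher in wild type, and they were the 3 Cyp3a probes, ST_Mm_051 and Mbtps1. At 1.5-fold or more there were 9 higher and 9 lower. The arrays of the genotypes did not overlap at 51 probes (21.6%), 50 of which passed the test.

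The split between higher and lower depended on the scaling. With arrays centred on the control probes, the median difference of all probes moved to -0.29, and 10 probes were higher and 57 lower. In PXR-deficient replicate 2 the control probes centred on -1.97 and the mouse probes then had a median of 1.15. Without that array control centring gave a median difference of -0.08, with 14 probes higher and 36 lower. After loess the controls themselves differed by a median of 0.39 (29 control probes, -0.25 to 1.08). Calls with the same sign under loess, median centring, control centring and print-block loess numbered 47, of which 10 were higher and 37 lower. The named probes among the 10 were Cyp3a11, Cyp3a13, Cyp3a41a, Mbtps1, Tbxas1, Nr2c1, Nr2e1 and Nr5a1. Without PXR-deficient replicate 2 there were 58 higher and 46 lower.

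**Figure D2:**
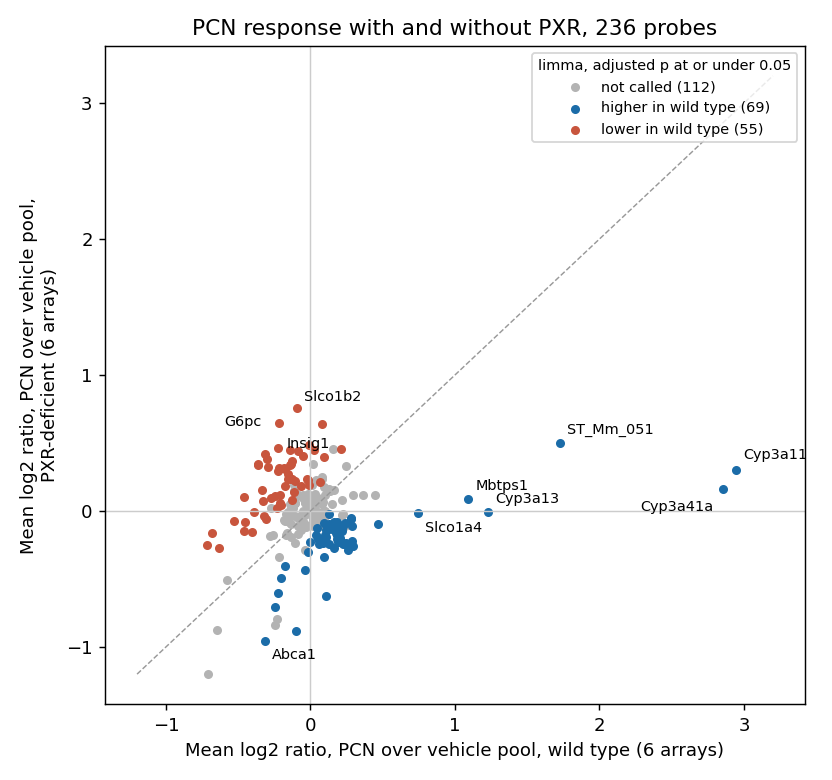
Mean log2 ratio of PCN over vehicle pool in wild type (horizontal) against PXR-deficient livers (vertical), 1 point per probe, 236 probes, dashed line at equal response, colours by limma call. The Cyp3a probes and ST_Mm_051 lie far to the right, while most other called probes stay within 1 of 0 on both axes.

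PCN changed 89 probes in wild type livers (37.7%), 50 up and 39 down, and 92 in PXR-deficient livers (39%), 46 in each direction (19.5%). These directions depended on the scaling. Control centring gave 8 up and 20 down in wild type and 37 up and 4 down in PXR-deficient livers, and with PXR-deficient replicate 2 also left out it gave 16 up and 78 down in wild type and 18 in each direction without PXR. Median centring gave 21 in each direction in wild type and 37 up and 19 down without PXR. Among the 124 probes that differed, 39 were changed in wild type only, 44 in PXR-deficient livers only, 23 in both with opposite signs, 7 in both with the same sign and 11 in neither. The wild type count was 46 without wild type replicate 1 and 55 without wild type replicate 2, and the class changed without PXR only held 23 without PXR-deficient replicate 2. The class changed in wild type only held 25 without wild type replicate 1. The median absolute log2 ratio per array was 0.169 ± 0.048 (SD, n = 6) in wild type and 0.160 ± 0.085 in PXR-deficient livers (2-sided exact permutation test, p = 0.823). Since Cy5 marked the PCN sample on every array, a bias of the dyes at single probes can be part of either response, but it cancels when the genotypes are subtracted.

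The channel behind each difference was read from the Cy5 and Cy3 levels after scaling between arrays. The PCN-treated level (Cy5) differed between genotypes at 14 of 236 probes (5.93%), 7 higher (2.97%) and 7 lower (2.97%) in wild type by limma. Those higher were Cyp3a11 (2.26 ± 0.26, SE), Cyp3a41a (1.78 ± 0.19), Slco1a4 (0.94 ± 0.17), Mbtps1 (0.78 ± 0.13), ST_Mm_051 (0.77 ± 0.15), Cyp3a13 (0.73 ± 0.13) and Msmo1 (1.11 ± 0.30), a sterol demethylase whose ratio did not pass the test. For Msmo1 the Cy3 levels were likewise higher in the wild type pool (9.57 to 11.03) than in the PXR-deficient pool (8.36 to 9.23), without overlap. Those with the lower Cy5 level in wild type were Cyp27a1 and 6 unnamed probes. Under 21 alternatives the Cy5 calls of Cyp3a11, Cyp3a41a, Slco1a4, Mbtps1 and ST_Mm_051 held in all 21 and that of Cyp3a13 in 20. The count fell to between 8 and 14 when 1 array was left out, and it was 8 without wild type replicate 3, PXR-deficient replicate 1 or PXR-deficient replicate 6 and 9 without PXR-deficient replicate 2 or 5.

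For 94 of the 124 differing probes the Cy3 part was the larger, and for 30 the Cy5 part was. The Cy5 difference had the opposite sign at 46. The share with the larger Cy3 part was 75.8%, and it was 48.4% when levels were not scaled between arrays. Over the other scalings, filters and left-out arrays tried it was 61.2% to 78.6%. For Cyp3a11 the wild type Cy5 levels (13.57 to 14.79) lay above the PXR-deficient ones (11.51 to 12.83), while the Cy3 levels of the pools overlapped (10.95 to 11.52 and 11.11 to 12.44). The Cy3 levels of Cyp3a13 did not overlap and were the higher in the PXR-deficient pool (11.12 to 11.55 against 10.61 to 10.99). The same was true of Cyp3a41a, with 12.09 to 12.89 in the PXR-deficient and 11.09 to 11.92 in the wild type pool. Wild type minus PXR-deficient, Cy3 differed by -0.91 for Cyp3a41a and by -0.51 for Cyp3a13, beside log2 ratio differences of 2.69 and 1.24, and pool and genotype cannot be told apart there.

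**Figure D3:**
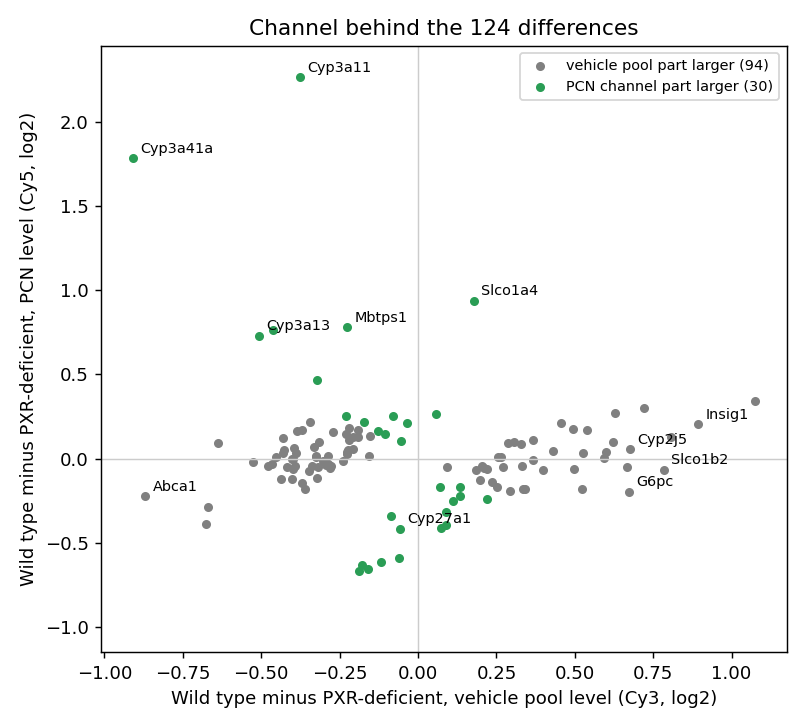
For the 124 differing probes, the wild type minus PXR-deficient difference of the vehicle pool level (Cy3, horizontal, log2) against that of the PCN level (Cy5, vertical, log2). The 94 grey probes have the larger part in Cy3 and the 30 green ones in Cy5, with Cyp3a11 and Cyp3a41a at the top.

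Among the genes with a higher PCN log2 ratio in wild type, the cholesterol exporter Abca1 differed by falling less. Its log2 ratios ran from -0.78 to -0.04 (median -0.26) in wild type and from -1.28 to -0.63 (median -1.01) in PXR-deficient livers. The ranges overlapped only through wild type replicate 2. PCN lowered Abca1 to 0.515 of the pool without PXR (limma adjusted p = 4.02e-10) and to 0.805 in wild type (adjusted p = 0.00241). The difference was 0.64 ± 0.10 (SE, limma adjusted p = 5.53e-05). The Cy5 levels were close (8.79 and 9.01), whereas Cy3 was 9.10 in the wild type and 9.97 in the PXR-deficient pool. Control centring ended the call (0.38, adjusted p = 0.0988), but not with PXR-deficient replicate 2 left out (0.57, adjusted p = 0.00232).

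Among named probes above background on most arrays, the others of the 15 with the largest differences on this side differed by 0.46 to 0.56, and each had its larger part in the Cy3 channel except Nr2e1. They were Apoa1 (0.56), the main protein of high-density lipoprotein, Tbxas1 (0.55), thromboxane synthase, the orphan or lipid-sensing nuclear receptors Nr5a1 (0.55), Nr2c1 (0.51), Nr2e1 (0.48) and Nr5a2 (0.46), Mvd (0.48) of the mevalonate pathway, Acss2 (0.47), which makes acetyl-CoA, and the bile salt exporter Abcb11 (0.46). The Nr5a1 and Nr2e1 probes had median wild type Cy3 levels of 10.39 and 9.67. Probe sequences were not used here, so whether these probes read only the named transcripts was not tested. PXR-deficient replicate 2 was the lowest of its group for Tbxas1, Nr5a1, Nr2c1, Nr2e1, Mvd and Acss2, and without it these genes differed by 0.39, 0.40, 0.38, 0.36, 0.34 and 0.31, all still called. In wild type, replicates 1 and 2 were the highest for Tbxas1 (0.67 and 0.59, others 0.04 to 0.20) and Nr5a1 (0.56 and 0.68, others -0.06 to 0.29). Leaving out any single array did not end the call of these genes, and leaving out both wild type arrays was not tested. Abcb11 was not called without PXR-deficient replicate 2 (0.29, limma adjusted p = 0.126), nor without wild type replicate 1, 2 or 5 or PXR-deficient replicate 3. Apoa1 turned sign, uncalled, under control centring (-0.10, but 0.06 with PXR-deficient replicate 2 omitted) and in the authors' deposited value table (-0.18).

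Probes with a lower PCN log2 ratio in wild type were led by G6pc and Slco1b2. G6pc, the glucose-6-phosphatase of the last step of glucose release, ran from -1.02 to 0.44 (median -0.09) in wild type and from 0.50 to 0.89 (median 0.60) in PXR-deficient livers. No arrays overlapped, although the wild type arrays were widely spread, with replicates 1 and 2 lowest. PCN raised G6pc 1.57-fold without PXR (limma adjusted p = 0.0014) and the wild type ratio did not pass the test (0.859-fold, adjusted p = 0.249). The difference was -0.87 ± 0.21 (SE, limma adjusted p = 0.00175).

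Slco1b2, a liver uptake transporter for organic anions, ran from -0.41 to 0.27 (median -0.20) in wild type and from 0.51 to 0.99 (median 0.80) without PXR. All PXR-deficient arrays lay above all wild type arrays. The gene rose 1.69-fold without PXR (limma adjusted p = 1.95e-07), and the difference was -0.85 ± 0.12 (SE, adjusted p = 5.44e-06). Its Cy5 levels were nearly equal (10.8 and 10.9), and Cy3 was 10.9 in the wild type and 10.1 in the PXR-deficient pool. Readings of the 1 wild type pool ran from 9.93 to 11.60 over the 6 arrays, a spread that a ratio within an array does not carry.

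The same order held for Ppp1r3c (-0.72), a subunit that directs a phosphatase to glycogen, Insig1 (-0.69), which holds back sterol synthesis, and Cyp2j5 (-0.62), a fatty acid-oxidising P450. At each of these 3 genes the arrays did not overlap and the PXR-deficient livers rose with PCN, by 1.27-, 1.38- and 1.25-fold. Their Cy5 differences were -0.05, 0.20 and 0.06, and their Cy3 differences 0.67, 0.89 and 0.68. Ppp1r3c and Cyp2j5 also fell in wild type (limma adjusted p = 0.00481 and 0.000321), whereas Insig1 did not pass the test there (adjusted p = 0.0852).

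**Figure D4:**
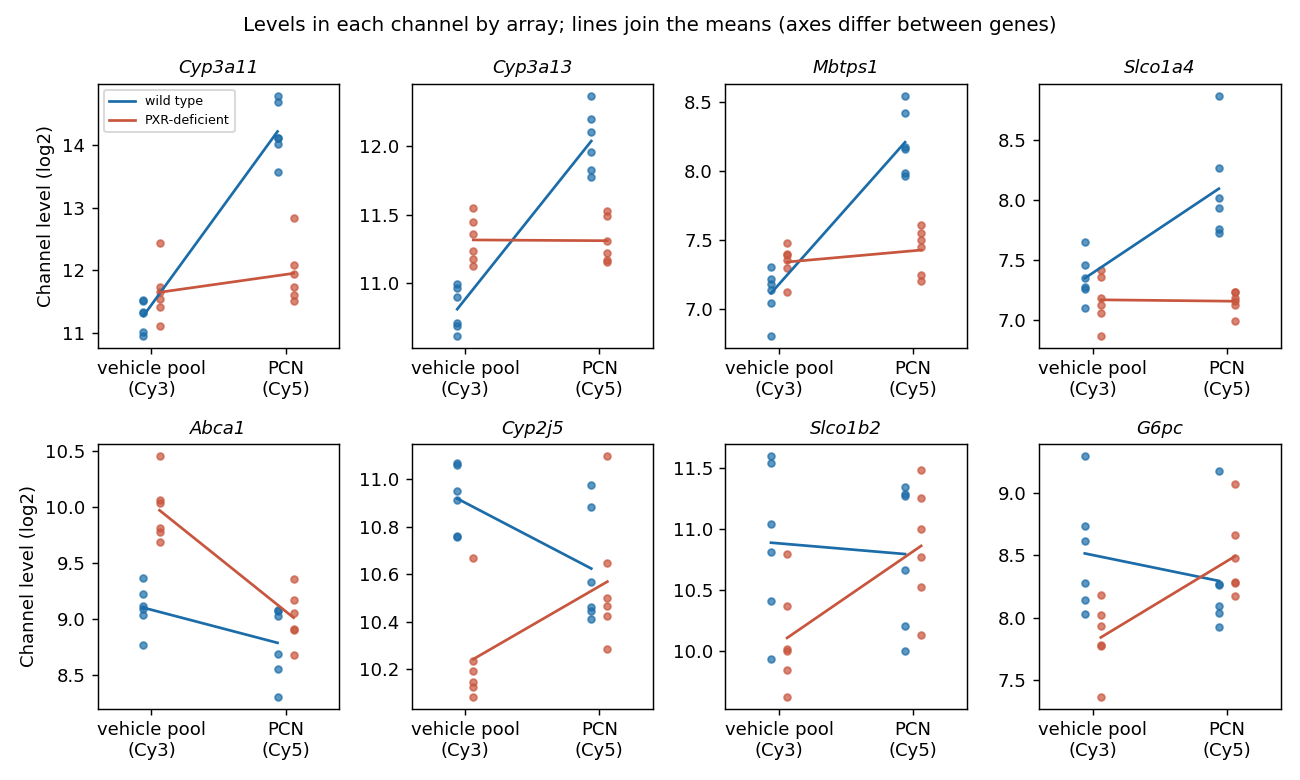
Level in the vehicle pool (Cy3) and after PCN (Cy5) on each array for 8 genes, with lines between the means of wild type (blue) and PXR-deficient (red) arrays, on the log2 scale with a separate axis per gene. For Cyp3a11, Cyp3a13, Mbtps1 and Slco1a4 the genotypes do not overlap in Cy5, and those of Cyp3a13 do not overlap in Cy3 either. For Abca1, Cyp2j5, Slco1b2 and G6pc the means lie farther apart in Cy3 than in Cy5, though the Cy3 arrays of Slco1b2 and G6pc overlap.

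The rest of the 15 named probes with the largest differences on the lower side were Cyp2f2 (-0.52), Adipor2 (-0.52), an adiponectin receptor, C4bp (-0.52), an inhibitor of complement, Cyp2d22 (-0.49), the coactivators Crebbp (-0.46) and Ppargc1a (-0.47 and -0.36 at 2 probes), squalene synthase Fdft1 (-0.42), Pon2 (-0.40) and the growth factor Igf1 (-0.38). Both Ppargc1a probes fell in wild type, to 0.609 and 0.644 of the pool. In PXR-deficient livers they stood at 0.842 (limma adjusted p = 0.0838) and 0.828 (adjusted p = 0.0113). Crebbp fell in wild type to 0.693 (adjusted p = 1.13e-06) and stood at 0.952 without PXR. Without PXR-deficient replicate 2, Pon2, Igf1 and 1 of the 2 Ppargc1a probes were not called (limma adjusted p = 0.0602, 0.0599 and 0.0627), and Igf1 was also lost without wild type replicate 2 or PXR-deficient replicate 4 or 6.

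Of the listed PXR and CAR targets and drug metabolism genes, 13 of the 14 on the array could be tested. They leave out Cyp3a41a, because the list holds only the symbol Cyp3a41. The PCN log2 ratio was higher in wild type for 6, lower for 3 and not called for 4, with a median difference of 0.25 against -0.01 over all probes, of which 29.2% were higher and 23.3% lower. Beyond Cyp3a11, Cyp3a13 and Slco1a4, those higher were Cyp1a1 (0.42), which oxidises polycyclic aromatic compounds, the drug exporter Abcb1a (0.38) and Cyp2b13 (0.22). Those lower were Slco1b2, Cyp2c40 (-0.32) and Abcc2 (-0.30), a canalicular exporter of conjugates that rose without PXR. Alas1, the rate-limiting enzyme of haem synthesis, rose in wild type (0.36) but its difference of 0.25 was not called (95% interval -0.00 to 0.50).

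Only 2 genes of this list, Cyp3a11 and Cyp3a13, stayed higher under control centring, with 3 lower, both with and without PXR-deficient replicate 2. Cyp3a41a, outside the list, also stayed higher in both settings. Over all 236 probes control centring gave 10 higher and 57 lower, or 14 and 36 with PXR-deficient replicate 2 left out. Under loess without PXR-deficient replicate 2 the list's counts were 4 higher and 3 lower, against 58 and 46 over all probes. Abcb1a was lost in 7 of 12 omissions of a single array, which were wild type replicates 1 to 5 and PXR-deficient replicates 1 and 2 (0.19 without the last, limma adjusted p = 0.137). Cyp2b13 was lost without wild type replicate 1 or PXR-deficient replicate 2 (adjusted p = 0.051 without the latter), and Cyp2c40 without wild type replicate 6 or PXR-deficient replicate 4.

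Genes of cholesterol synthesis and its control differed at 10 of 12 tested, 8 higher in wild type and 2 lower, with a median difference of 0.27. Over all probes 52.5% differed, 29.2% higher and 23.3% lower. The higher ones were the enzymes Mvd, Lss (0.43), Ebp (0.28), Fdps (0.26) and Mvk (0.26), the transcription factors Srebf1 (0.34) and Srebf2, and Scap (0.27), which escorts them. The lower ones were Insig1 and Fdft1. In wild type livers 5 of the 12 rose with PCN and Ebp fell, and in PXR-deficient livers Fdft1 and Insig1 rose and Lss, Ebp and Mvk fell.

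For all 10 of these differences the Cy3 part was the larger. Under control centring none of the 12 was higher and 3 were lower, with the list's median at -0.01 where that of all probes was -0.29. With PXR-deficient replicate 2 also left out, none was higher and Insig1 was lower, with medians of 0.06 and -0.08. Under loess without that array there were 6 higher and 2 lower. Over all 236 probes these settings gave, in the same order, 10 higher and 57 lower, 14 and 36, and 58 and 46. Ebp and Fdps were lost under loess without PXR-deficient replicate 2 (limma adjusted p = 0.0652 and 0.114), and also without wild type replicate 1 or 2 and, for Fdps, PXR-deficient replicate 3. Srebf2 was not well above background in the Cy3 channel of any wild type array, so its ratio there has only a bound and no value is given. It is still counted among the 8 higher and in the list's medians.

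Bile acid genes differed at 7 of 8 tested, 5 higher in wild type and 2 lower, with a median difference of 0.23 (all probes: 52.5% differing, 29.2% higher and 23.3% lower). Higher were Abcb11, the cholesterol hydroxylase Cyp46a1, best known from brain, (0.40), the repressor SHP or Nr0b2 (0.27), Cyp7a1 (0.26), the rate-limiting enzyme of bile acid synthesis, and the bile acid receptor Nr1h4 (0.21). Cyp7a1 fell with PCN in PXR-deficient livers (-0.21) and stood at 0.05 in wild type. Lower were Cyp27a1 (-0.36), the first enzyme of the alternative pathway, and Cyp8b1 (-0.20).

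Cyp27a1 had log2 ratios of -0.37 to 0.01 (median -0.18) in wild type and -0.03 to 0.35 (median 0.18) without PXR. The genotypes barely overlapped, since PCN lowered the gene in the one (limma adjusted p = 0.0211) and raised it in the other (adjusted p = 0.0105). Its larger part lay in the PCN-treated channel, with a Cy5 difference of -0.42 ± 0.12 (SE, limma adjusted p = 0.031). That call rests on the scaling and on single arrays: it held in 7 of 21 alternatives, with differences from -0.54 to 0.02. Control centring left 0 bile acid genes higher and 2 lower, or 1 and 2 with PXR-deficient replicate 2 also left out, and loess without that array left 2 higher and 1 lower. Over all 236 probes these settings gave, in the same order, 10 higher and 57 lower, 14 and 36, and 58 and 46. Cyp7a1 (limma adjusted p = 0.083), Nr1h4 (0.114) and Cyp8b1 (0.051) were lost under loess without PXR-deficient replicate 2. Cyp7a1 was also lost without wild type replicate 1 or 2, Nr1h4 without wild type replicate 1, 4 or 5, and Cyp8b1 without wild type replicate 5 or 6 or PXR-deficient replicate 1, 5 or 6.

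Nuclear receptors and coactivators were measured by 12 probes of 11 genes, 4 higher in wild type, 3 lower and 5 not called, with a median difference of -0.01. The share called was near the 52.5% of all probes. Higher were Nr5a2, the retinoid receptor Rxrb (0.42), the glucocorticoid receptor Nr3c1 (0.31) and Pparg (0.30). The Pparg probe was dim, with wild type Cy3 levels of 7.54 to 7.92. Lower were both Ppargc1a probes and Nr1i3, the gene of CAR (-0.15, limma adjusted p = 0.0438), which was lost in 9 of 12 omissions of a single array (all but wild type replicate 1 and PXR-deficient replicates 4 and 6). Rxra, the partner of PXR, differed by -0.04 with a 95% interval of -0.18 to 0.10. Control centring left none higher and the 2 Ppargc1a probes lower. When PXR-deficient replicate 2 was omitted as well, Rxrb was the one probe called, as higher, and loess without that array gave 4 higher and 1 lower. Over all 236 probes these settings gave, in the same order, 10 higher and 57 lower, 14 and 36, and 58 and 46.

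**Figure D5:**
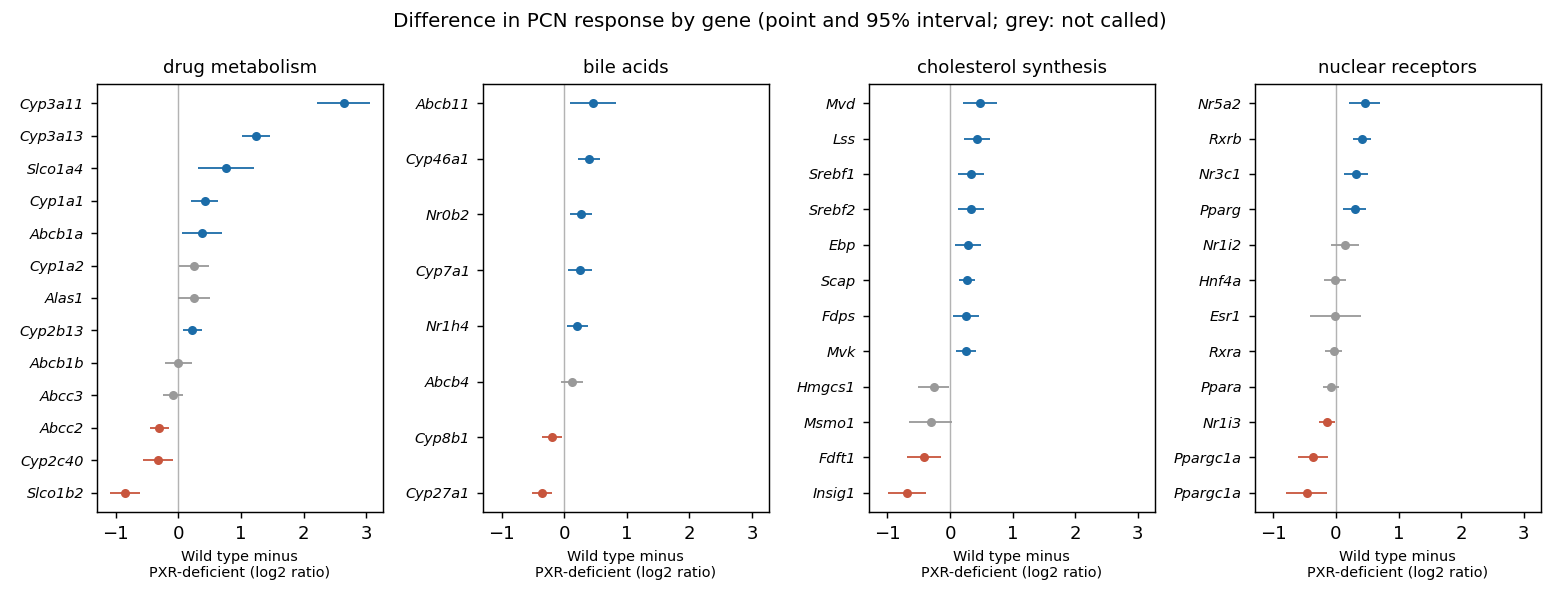
Wild type minus PXR-deficient difference of the PCN log2 ratio (horizontal, with 95% interval) for each tested gene of 4 lists, blue where higher in wild type, red where lower and grey where not called by limma. Cyp3a11 at 2.64 and Cyp3a13 at 1.24 exceed every gene of the other 3 lists, whose differences lie between -0.69 and 0.48. Cyp3a41a is in none of the lists and is not shown.

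The mice without CAR, which carry PXR, gave a second set of arrays for the same question. The PCN log2 ratio differed between CAR-deficient and PXR-deficient livers at 77 of 236 probes (32.6%), of which 43 were higher in CAR-deficient livers (18.2%). Cyp3a11 was higher in CAR-deficient livers by 1.92, Cyp3a41a by 1.78, Cyp3a13 by 0.80, ST_Mm_051 by 0.97 and Mbtps1 by 0.61, with limma adjusted p from 2.05e-08 to 0.000348. The Slco1a4 difference of 0.33 was not called (adjusted p = 0.241). This comparison shares the PXR-deficient arrays with the one above, so they are not independent.

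Between wild type and CAR-deficient livers only 3 probes differed by limma (1.27%), 2 of them higher in wild type (0.847%). Cyp3a41a was higher in wild type by 0.92 (adjusted p = 0.00238) and Cyp3a13 by 0.44 (adjusted p = 0.031), and Crebbp was lower, at -0.39 (adjusted p = 0.031). Cyp3a11 differed by 0.72 without passing the test (adjusted p = 0.0583). The median correlation of an array with the others of its group was 0.49 to 0.74 for CAR-deficient and 0.76 to 0.83 for wild type arrays. CAR-deficient replicate 2 had 158 mouse probes above background and 27.4% of its spots flagged. No alternative processing was run for the comparisons with CAR-deficient livers, so how firm the low count is was not tested. Mice lacking both receptors differed from those lacking PXR alone at 98 probes (41.5%), with the PXR-deficient ratio the higher at 41 (17.4%). In the doubly deficient livers the mean log2 ratio was -0.37 for Cyp3a11, -0.24 for Cyp3a41a and -0.24 for ST_Mm_051, below the PXR-deficient means of 0.30, 0.16 and 0.50.

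The PXR-deficient minus doubly deficient difference was 0.67 for Cyp3a11 (limma adjusted p = 0.00997) and 0.73 for ST_Mm_051 (adjusted p = 3.68e-06). For Cyp3a41a it was 0.40 and not called (adjusted p = 0.0559). Slco1b2 gave the value farthest apart among the named genes, with a log2 ratio of 0.76 in PXR-deficient and -0.90 in doubly deficient livers (difference 1.66, limma adjusted p = 1.16e-11). Abca1 went the other way, from -0.96 to 0.12 (difference -1.08, adjusted p = 5.87e-09). The 2 genotypes have separate vehicle pools, and how much of these differences lies in the Cy3 channel is not given here. No alternative processing was run for this comparison. The median Cy5 background of doubly deficient replicates 5 and 6 was 0.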

How the data were processed

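Per the file headers, the deposited scanner tables list 1440 spots per array with the intensity of spot and background in 2 channels, as read by the authors with no normalization recorded. They also hold, per the file headers, the percent of pixels in a spot that exceed background by 2 SD or are saturated, and a flag. The authors' deposited value table holds log2 ratios whose normalization is not given in the sources used here; over arrays it ran in the same direction as the scanner ratios and was not centred on 0. The scanner software and genome build are not given either.

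Foreground medians were background-corrected by normexp with an offset of 50 (limma 3.58.1, R 4.3.3); the default failed for 1 channel (CAR/PXR-deficient replicate 6, Cy5), which was fitted by maximum likelihood. Ratios (Cy5, PCN, over Cy3, vehicle pool) were normalized by loess (span 0.3, 4 iterations, unflagged mouse spots) and spots of a probe were averaged. Above background means that 50% or more of a probe's spots passed the pixel criterion (over 50% of pixels, either channel), and probes meeting it on 50% or more of the arrays in any genotype were tested. A single limma fit of all 24 arrays estimated the mean of each genotype. P-values were adjusted by Benjamini-Hochberg across the 236 probes, and calls were made at 0.05. Channel levels were taken after Aquantile scaling. Alternatives covered background, normalization, centring, dim and flagged spots, array weights, replicate as a block, the authors' values and leaving out each array. The number of arrays limits the precision, and the model was tested on simulated data. Genes come from the platform annotation, and all 147 matched RefSeq. The named genes are the 15 highest and 15 lowest called probes with a gene, and listed genes. The lists are PXR and CAR targets and drug metabolism, cholesterol synthesis, bile acids, nuclear receptors, steroid synthesis and circadian rhythm. Members and lists were chosen with earlier results of these data known. Figures were drawn with matplotlib 3.10.9.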

Additional observations from a re-analysis of the deposited data

Results flagged for a closer look

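In 12 of 62 groups of 6 arrays checked, 1 array lay far from the others by Dixon's criterion, where chance gives about 1 in 20 for a single group. The groups come from the same 12 arrays and are not independent, so their count cannot be set against that share. PXR-deficient replicate 2 was the far array 11 times. Its median absolute log2 ratio was 0.329 (others 0.103 to 0.161). It was lowest for Mbtps1 at -0.15 (others 0.08 to 0.16), Tbxas1 at -1.06 (-0.25 to -0.00), Nr5a1 at -1.02 (-0.23 to -0.02), Nr2c1 at -0.85 (-0.25 to -0.03), Nr2e1 at -0.85 (-0.29 to -0.04), Mvd at -0.94 (-0.23 to 0.00) and Acss2 at -1.04 (-0.28 to 0.07). It was highest for C4bp at 0.65 (-0.63 to -0.15), Crebbp at 0.40 (-0.30 to -0.05) and the Ppargc1a probe ST_Mm_131 at 0.23 (-0.51 to -0.23). Wild type replicate 2 was lowest for Ppp1r3c at -1.04 (-0.36 to -0.11). All 11 of these genes were still called without PXR-deficient replicate 2. The part of its saturated Cy3 spots in these values was not tested.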

How the results depend on the processing

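The main count of 124 differing probes (69 higher, 55 lower) stayed within 1.5 times under median centring except for the higher calls (45), and it moved under control centring (67, with 10 higher), control centring without PXR-deficient replicate 2 (50, with 14 higher and 36 lower) and median centring without it (67, with 32 and 35). Leaving out 1 array gave 104 to 125 differing probes, 58 to 71 higher and 46 to 56 lower. The cause of these moves was not tested. Probes changed by PCN in wild type numbered 42 under median centring, 28 under control centring and 38 in the authors' value table, and 46 to 100 with 1 array left out, the lowest without wild type replicate 1 and 55 without wild type replicate 2. Those changed in PXR-deficient livers numbered 56, 41 and 60 under those 3 settings, 36 and 51 under control and median centring without PXR-deficient replicate 2, and 65 to 94 with 1 array left out.

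The sorting of differing probes into wild type only, PXR-deficient only, same sign, opposite sign and neither followed suit. Median centring gave 22, 26, 3, 4 and 28, control centring 17, 27, 3, 2 and 18, and the values deposited by the authors gave 15, 29, 3, 7 and 30. Without PXR-deficient replicate 2, the last 4 classes held 11, 2, 6 and 5 probes under control centring and 20, 4, 5 and 3 under median centring. Array weights gave 12 and 13 probes in the same and opposite sign classes, the 12 arrays alone gave 7 with opposite sign and 29 in neither, and print-block loess gave 7 in neither. With 1 array left out the classes ran from 25 to 54, 23 to 57, 3 to 9, 5 to 25 and 9 to 17, with wild type replicates 1, 2 and 5 and PXR-deficient replicates 2 and 3 behind the moves beyond 1.5 times.

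The difference in response size per array, 0.0092 in the main setting, was below 0 under control centring (-0.148), with no background correction (-0.0118) and in the authors' value table (-0.0321), and ran from -0.0052 to 0.043 with 1 array left out; none passed the exact permutation test. Apoa1 turned to -0.10 under control centring and -0.18 in the authors' value table. Over the 30 named probes, 715 of the alternative values kept direction and call and 61 kept direction but lost the call. Under all 25 settings run on the same probes, the main one included, 33 calls held, 9 higher and 24 lower. The channel-level alternatives were chosen after seeing the data: Cy5 calls numbered 8 with no scaling between arrays and 8 to 14 with 1 array left out. The replicate numbers do not pair the arrays (same-number correlations of deviations from -0.52 to 0.13, and 1 of 6 numbers best matched by its own), and the fit with replicate as a block called 120 probes, 68 higher and 52 lower. Dim probes limit what can be said: the 59 dimmest probes held 8 higher and 2 lower calls, and the 59 brightest 24 and 17.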

Other observations

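Of 3 genes of steroid synthesis tested, Cyp17a1, which makes androgen precursors, had the higher PCN log2 ratio in wild type (0.29 ± 0.07, SE, limma adjusted p = 0.00277) and fell in PXR-deficient livers (-0.30). Cyp11a1, the side-chain cleavage enzyme, was lower (-0.27 ± 0.07, adjusted p = 0.0031) and fell in wild type (-0.21), and Cyp21a1 was not called. Of 4 circadian clock genes tested, the clock regulator Rora was higher by 0.22 (limma adjusted p = 0.0248) and was lost without wild type replicate 2 or PXR-deficient replicate 2 (adjusted p = 0.0763 without the latter). Cry1, Per2 and Nr1d2 were not called, with differences from 0.02 to 0.10. The list medians were -0.02 and 0.08. Over all probes 52.5% differed, 29.2% higher and 23.3% lower in wild type, so these few calls do not set either list apart.

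The reference genes Actb and Gapdh each had 2 probes that did not give the same call. Actb differed by 0.43 (limma adjusted p = 0.00831) and by 0.25 (adjusted p = 0.163), and Gapdh by 0.22 (adjusted p = 0.0085) and -0.01. Among the 108 tested probes with no gene in the annotation, 45 differed, 17 higher and 28 lower in wild type, from -0.73 to 1.23. Over all probes 52.5% differed, 29.2% higher and 23.3% lower.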
